A study of Mus musculus with 34 samples.

Results

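The Elavl genes and Rbm38 encode RNA-binding proteins whose RNA levels and splicing were followed here in N2A cells, a mouse neuroblastoma line, treated with small molecules that change the inclusion of microexons. Microexons are exons of at most 27 nt, many of which are spliced in mostly in neurons. The members were set by name as Elavl1, Elavl2, Elavl3, Elavl4, Rbm38 and its paralog Rbm24, because the study links such proteins to microexon control. They are 6 of the 52661 genes in the expression table and hold 73 of the 401633 events in the splicing table. They were chosen by name with their RNA levels (RPKM) against DMSO known, so their expression is given as a description without a test.

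All cells were treated for 24 h at a final DMSO concentration of 0.4%, each compound at its own dose, and polyA RNA was sequenced in 34 libraries. DMSO alone had 3 libraries, and 4 HDAC inhibitors (Vorinostat, CI-994, BRD6688 and BRD4884) had 2 each. Each of the other 23 compounds had 1 library, so their differences have no replicate check. By the reporter screen of the study, 17 compounds were activators of microexon inclusion and 10 were inhibitors. Every condition is the same cell line. The study calls its HDAC inhibitor and DMSO replicates biological, without saying how their cultures were kept apart, so the p-values below measure the spread between these libraries. Of 12 genes typical of sympathetic neuroblastoma, 10 exceeded 5 RPKM (reads scaled by transcript length and library size) in DMSO, and 7 of 10 neuronal genes did. None of the 7 glial, 6 fibroblast or 6 blood and endothelial genes did, and 1 of 12 muscle genes did.

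ELAVL proteins bind U-rich and AU-rich stretches of RNA through RNA recognition motifs, and they influence stability, translation, polyadenylation and splicing. ELAVL1 (HuR) is made in nearly all cells, whereas ELAVL2 (HuB), ELAVL3 (HuC) and ELAVL4 (HuD) are typical of neurons and of tumours of neuronal lineage. RBM38 and RBM24 are related proteins with a single RNA recognition motif that bind GU-rich RNA and affect splicing and mRNA stability. RBM38 is also known as a p53 target, and RBM24 is best known from skeletal and heart muscle.

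The 4 Elavl genes share their core exons: in GENCODE vM21 each has consecutive exons of 104, 154 and 226 nt. In Elavl2, Elavl3 and Elavl4 these are followed by an exon of 39 nt that lies in the coding sequence of the linker before the last RNA recognition motif, and that the main Elavl1 transcript lacks. Rbm38 and Rbm24 likewise share internal exons of 124 and 55 nt. The 39-nt exons are shown because their inclusion in Elavl2 is the event that moved with the most compounds, and the 42-nt stretch because the acceptor choice that adds it to Elavl4 differed in Vorinostat. Capitals mark the alternative exon or stretch, and the lower-case letters are 15 nt of the neighbouring exons on each side, from the GENCODE transcripts of build GRCm38, all on the minus strand. The Elavl2 exon lies at chr4:91254141-91254179, the Elavl3 exon at chr9:22024674-22024712, the Elavl4 exon at chr4:110209740-110209778 and the Elavl4 stretch at chr4:110206660-110206701.
Elavl2 39-nt exon: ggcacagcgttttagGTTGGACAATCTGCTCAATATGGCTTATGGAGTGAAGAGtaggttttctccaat
Elavl3 39-nt exon: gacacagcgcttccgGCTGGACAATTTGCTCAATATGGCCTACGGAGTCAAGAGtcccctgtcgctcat
Elavl4 39-nt exon: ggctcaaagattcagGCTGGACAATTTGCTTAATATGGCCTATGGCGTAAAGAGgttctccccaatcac
Elavl4 42-nt stretch: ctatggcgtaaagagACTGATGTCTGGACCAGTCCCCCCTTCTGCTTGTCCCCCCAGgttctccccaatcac
The 39-nt exons were close to each other letter by letter, with 34 of 39 nt identical between Elavl2 and Elavl3, 33 between Elavl2 and Elavl4, and 35 between Elavl3 and Elavl4. Their inclusion in N2A cells nevertheless differed widely, as the splicing values further on show.

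In DMSO, Elavl4 was listed at 131 RPKM, Elavl2 at 123 RPKM and Elavl1 at 116 RPKM. Rbm38 was lower at 40.6 RPKM and Elavl3 lower again at 22.4 RPKM. Rbm24 was listed at 0 RPKM in DMSO and reached 0.610 RPKM at most, in CI-994. The deposited RPKM holds 1 merged value per condition, so the order of Elavl4, Elavl2 and Elavl1 cannot be set against a spread. A second measure, inclusion reads of near-constitutive exons (at least 95 PSI in DMSO) per 1000000 such reads of a library (junction RPM), was therefore taken from each library. It is not scaled by length and serves only to compare libraries for 1 gene. In the DMSO libraries it was 261 ± 6.32 for Elavl1, 247 ± 12.3 for Elavl2, 109 ± 9.61 for Elavl3, 319 ± 5.27 for Elavl4 and 55.7 ± 5.02 for Rbm38 (SD, n = 3), while Rbm24 had no exon that could be read.

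Rbm38 RNA was several-fold higher in 3 microexon inhibitors. Its RPKM rose from 40.6 in DMSO to 271 in T5985871, 160 in AW00693 and 149 in T5635931, which are log2 ratios of 2.72, 1.96 and 1.87 with 0.5 RPKM added to both conditions. Genes past 2-fold upward, with over 5 RPKM in either condition, made up 6.05% of all genes tested in T5985871, 2.53% in AW00693 and 1.54% in T5635931. The next values, 79.1 RPKM in T5758020, 64.6 RPKM in 5-azacytidine and 58.3 RPKM in T5963258, stayed under 2-fold. Of the 10 inhibitors, 9 had more Rbm38 than DMSO, the exception being MK-1775 at 36.3 RPKM. Any difference from the single DMSO value was counted, and SPB00858 (41.9 RPKM) and Dissimilar_18_P14 (41.0 RPKM) were hardly above it. Of the 17 activators, 13 had less by RPKM, down to 22.5 RPKM in GNF-5837, a TRK inhibitor, and 23.3 RPKM in Trametinib, a MEK inhibitor, neither past 2-fold. In bulk RNA of this kind, a change in the number of cells that express a gene and a change in RNA per cell cannot be told apart.

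**Figure D1:**
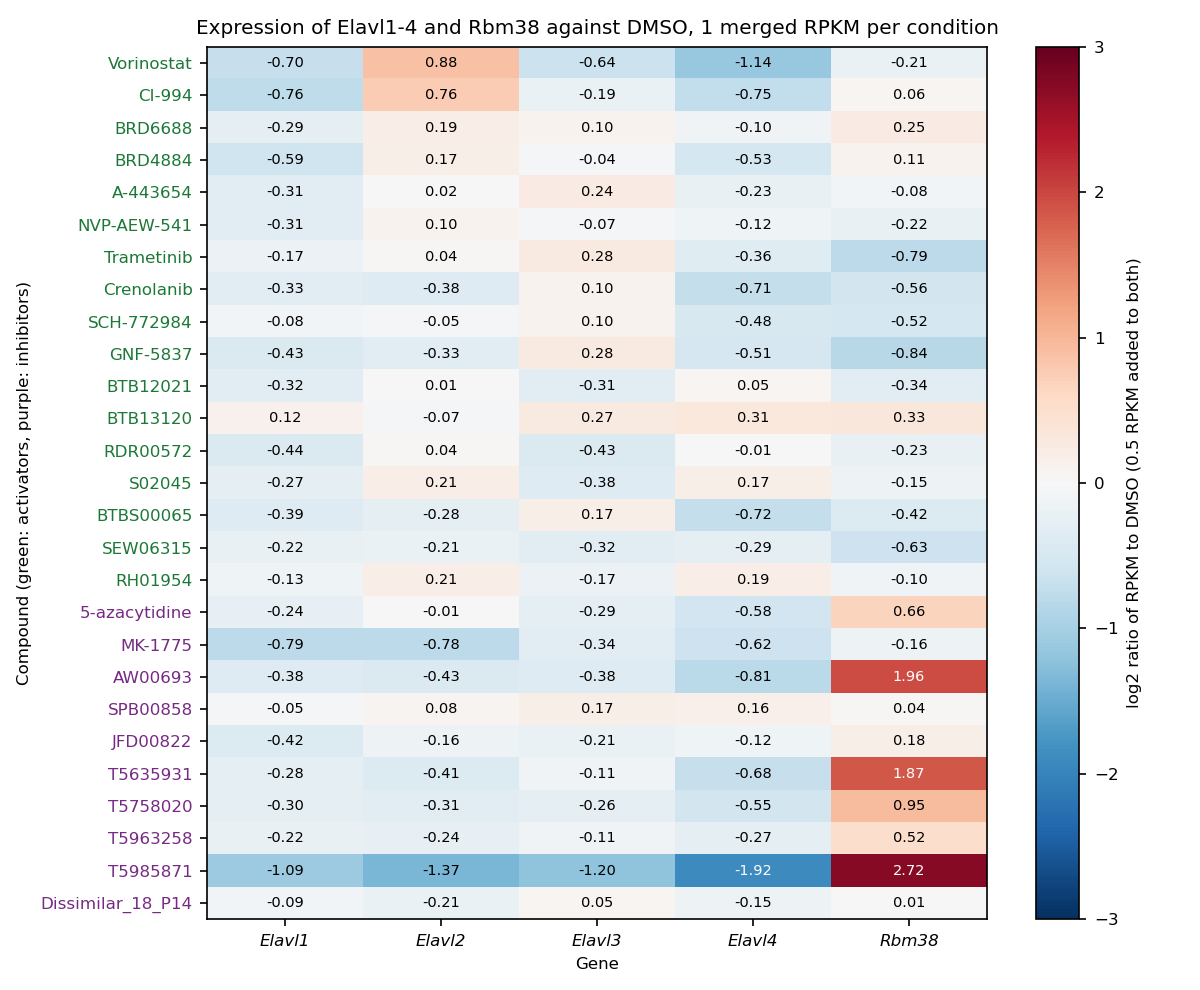
Log2 ratio of RPKM to DMSO for Elavl1, Elavl2, Elavl3, Elavl4 and Rbm38 (columns) in 27 compounds (rows, activators in green and inhibitors in purple), with the value printed in each cell. Rbm38 is highest in T5985871 (2.72), AW00693 (1.96) and T5635931 (1.87), and the 4 Elavl genes are all at -1.09 or lower in T5985871.

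The libraries themselves gave the same picture for these inhibitors. Rbm38 junction RPM was 59.0, 58.1 and 49.9 in the DMSO libraries. It was 457 in T5985871, 231 in AW00693 and 192 in T5635931. All of these lay far above the DMSO range, and on this scale 3.62%, 0.820% and 0.457% of genes were past 2-fold upward in those compounds. T5758020 at 92.5 and 5-azacytidine at 94.9 also lay above the DMSO range, as did MK-1775 at 77.5, whose RPKM was below DMSO. Trametinib at 38.0 and SEW06315 at 31.4 lay below it. Of the 17 activators, 5 lay below the DMSO range on this scale, 5 overlapped it and 7 lay above it, among them BTB12021 at 62.1 (32.1 RPKM) and RDR00572 at 73.6 (34.6 RPKM), both below DMSO by RPKM. The mean was below that of DMSO in 9 of the 17 activators. All 10 inhibitors lay above the DMSO range, Dissimilar_18_P14 (59.7) and SPB00858 (62.5) only narrowly. The share of all genes outside their DMSO range was not counted, so these counts have no background.

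For the HDAC inhibitors the 2 measures of Rbm38 differed. The RPKM ratio to DMSO was close to 1 in CI-994 (42.4 RPKM) and BRD6688 (48.5 RPKM), whereas junction RPM was 111 and 107 in the CI-994 libraries and 110 and 122 in those of BRD6688, the latter past 2-fold as were 6.48% of genes. Vorinostat had 35.2 RPKM, below DMSO, but 68.9 and 82.2 junction RPM, above every DMSO library. The median log2 ratio of all genes was -0.44 in CI-994 and -0.36 in Vorinostat on the RPKM scale, against -0.07 and -0.03 for junction reads. Centred on that median, Rbm38 was at a log2 ratio of 0.50 in CI-994. The direction of Rbm38 in Vorinostat thus depended on the scale.

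**Figure D2:**
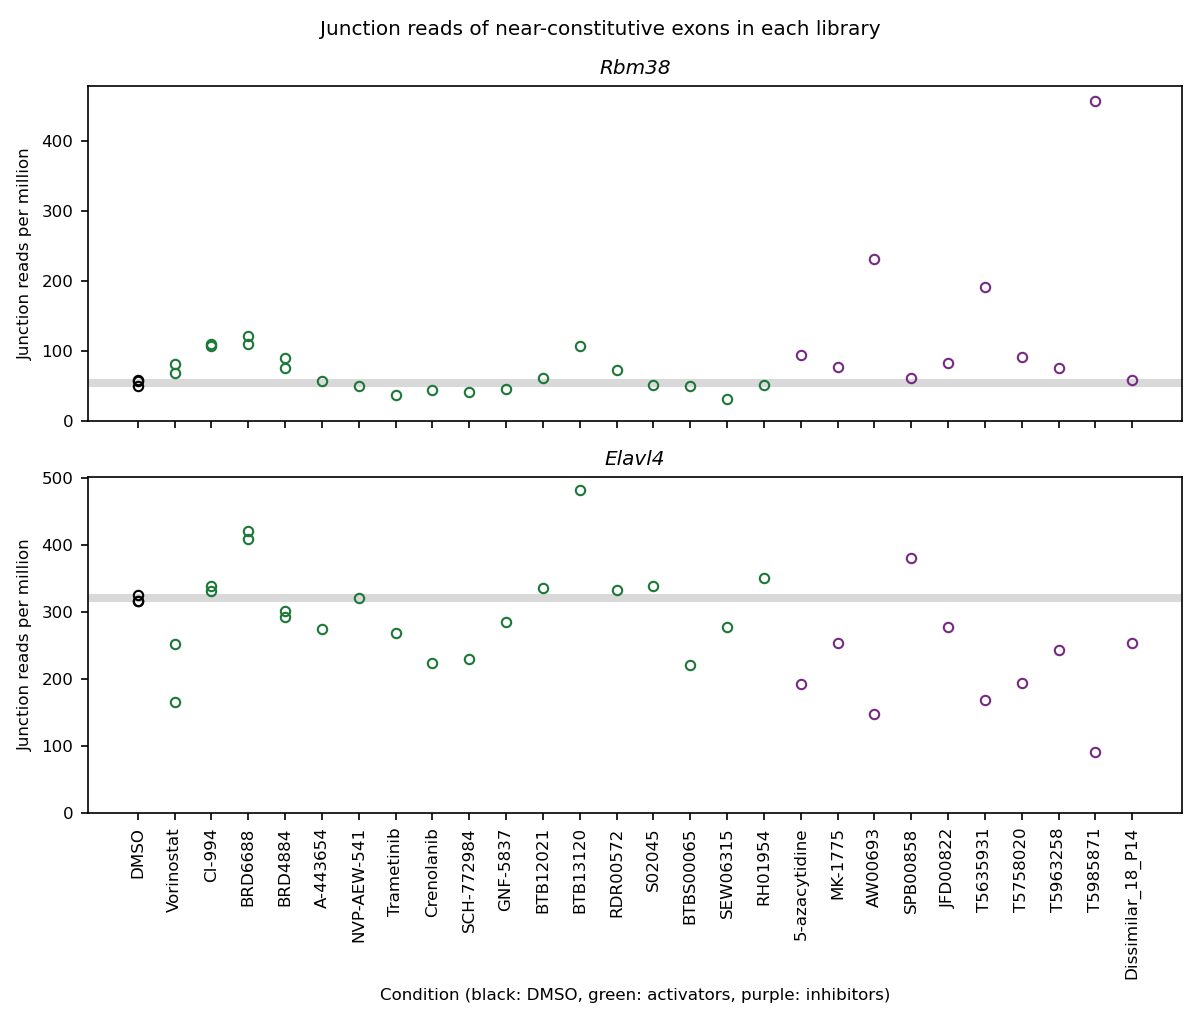
Junction RPM for Rbm38 (upper panel) and Elavl4 (lower panel), 1 circle per library, in DMSO (black), activators (green) and inhibitors (purple), with the DMSO range in grey. T5985871 stands at 457 for Rbm38 and at 91.3 for Elavl4, against DMSO means of 55.7 and 319.

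The Elavl RNAs moved the other way in T5985871. Elavl4 fell from 131 to 34.3 RPKM (log2 -1.92), Elavl2 from 123 to 47.2 RPKM (log2 -1.37), Elavl3 from 22.4 to 9.43 RPKM (log2 -1.20) and Elavl1 from 116 to 54.2 RPKM (log2 -1.09). Genes past 2-fold downward were 8.41% of all genes tested in this compound, and the median of all genes was -0.20. Relative to that median Elavl2 (-1.17) and Elavl4 (-1.71) stayed past 2-fold and the other Elavl genes did not, with Elavl1 at -0.88. Junction RPM was 91.3 for Elavl4, 113 for Elavl2, 56.6 for Elavl3 and 161 for Elavl1, each below all 3 DMSO libraries. Elavl4 and Elavl2 were past 2-fold, as were 8.57% of genes. How many of all genes lay below their DMSO range in T5985871 was not counted. Over the 27 compounds, Elavl1 lay below its range in 24, Elavl4 in 18, Elavl2 in 13 and Elavl3 in 4.

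In the other inhibitors with high Rbm38 the decrease was largest in Elavl4. AW00693 had 74.3 RPKM of Elavl4 (log2 -0.81) and T5635931 had 81.8 RPKM (log2 -0.68), neither past 2-fold. Their Elavl4 junction RPM values were 147 and 169, below the DMSO values of 316, 325 and 316, and AW00693 was past 2-fold on that scale (log2 -1.11), where 2.92% of genes were. Of the 10 inhibitors, 9 had less Elavl4 RPKM than DMSO, and SPB00858 was the exception at 147 RPKM. JFD00822 (121 RPKM) and Dissimilar_18_P14 (118 RPKM) were close to DMSO at 131 RPKM. Elavl3 showed no such difference in these compounds by junction reads, with 106 in AW00693 and 105 in T5635931 inside the DMSO range.

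Elavl2 was higher than in DMSO in the HDAC inhibitors. It was at 226 RPKM in Vorinostat and 208 RPKM in CI-994, log2 ratios of 0.88 and 0.76, while the other Elavl genes were below DMSO by RPKM. Junction RPM of Elavl2 was 566 and 689 in the Vorinostat libraries and 667 and 711 in those of CI-994, against 240, 240 and 261 in DMSO. Relative to the median of all genes, the RPKM ratios were 1.24 and 1.20. The groups did not overlap in junction RPM, but the share of all genes without overlap was not counted. Over the 27 compounds, Elavl2 lay above its DMSO range in 13 and below it in 13. Vorinostat and CI-994 were both past 2-fold on this scale (log2 1.34 and 1.48), as were 12.3% and 12.1% of all genes upward. BRD6688 (385 and 388) and BRD4884 (370 and 373) also lay above DMSO, with log2 RPKM ratios of 0.19 and 0.17. The contrast with the other Elavl genes depended on the scale. Elavl3 in CI-994 was at 19.6 RPKM, below DMSO, but at 140 and 121 junction RPM, above every DMSO library, the highest of which was at 120. In BRD6688 junction RPM was above DMSO by 1.57-fold for Elavl2, 1.31-fold for Elavl3 and 1.30-fold for Elavl4.

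Marker lists moved in the same HDAC inhibitors. The summed level of the 12 neuroblastoma markers was 1710 RPKM in Vorinostat, 1912 RPKM in CI-994, 1304 RPKM in BRD6688 and 1166 RPKM in BRD4884, against 940 RPKM in DMSO. Chgb alone made up 667, 811, 536 and 405 RPKM of these sums, against 325 RPKM in DMSO. The 10 neuronal markers summed to 1098, 1526, 1391 and 1395 RPKM in these compounds against 1289 RPKM. The 6 fibroblast markers summed to 0.580 RPKM in DMSO and to 12.1, 23.4, 7.05 and 13.2 RPKM, with 3, 2, 1 and 2 of them over 1 RPKM. The 6 blood and endothelial markers summed to under 1 RPKM in DMSO and to between 4.31 RPKM in BRD6688 and 31.4 RPKM in Vorinostat, where Hba-a1, an alpha globin gene, made up 27.5 RPKM. The 12 muscle markers summed to 46.7, 55.2, 36.8 and 27.1 RPKM against 29.3 RPKM, and the 7 glial markers to 6.91, 5.43, 2.87 and 4.09 RPKM against 3.51 RPKM. The part of these markers in the Elavl2 values was not tested.

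Elavl4 had 59.1 RPKM in Vorinostat (log2 -1.14), past 2-fold downward as were 22.5% of all genes tested there. Centred on the median of all genes it was at -0.78, and by junction RPM, at 165 and 252, at -0.62. In CI-994 Elavl4 was lower by RPKM (77.7 RPKM, log2 -0.75) but slightly above the DMSO libraries by junction reads (331 and 338), so its direction there depended on the scale. Elavl1 was below DMSO by RPKM in 26 of 27 compounds, with BTB13120 at 126 RPKM as the exception. Its junction reads lay below the DMSO range in 24 of 27. That range was narrow, at 255 to 267, so SPB00858 at 254 and GNF-5837 at 253 were counted as below. The share of all genes below their DMSO range was not counted. All 27 comparisons share the same DMSO value.

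Over the 27 compounds, the RNA level of Rbm38 and the share of decreased microexons were high in the same compounds. Microexons called decreased were 118 of 545 tested in T5985871 (21.7%), 125 of 588 in AW00693 (21.3%), 88 of 597 in T5635931 (14.7%) and 91 of 593 in T5758020 (15.3%). MK-1775 departed from this, with 62 of 602 decreased (10.3%) at an Rbm38 log2 ratio of -0.16. As a description over compounds that share their DMSO libraries, Pearson's r between the Rbm38 log2 ratio and the percent of microexons decreased was 0.89 (n = 27, Spearman's rho 0.69). It was 0.77 without AW00693 and T5985871, the compounds farthest from the median. The same r was -0.34 for Elavl1 (rho -0.18), -0.64 for Elavl2 (rho -0.43), -0.57 for Elavl3 (rho -0.56) and -0.55 for Elavl4 (rho -0.25). For Elavl1 it was 0.04 without MK-1775 and T5985871. Without Vorinostat and T5985871 it was -0.54 for Elavl2, -0.43 for Elavl3 and -0.40 for Elavl4. What the compounds have in common beyond these values was not tested. Only RNA was measured here. By western blot, the study found more RBM38 protein with AW00693 but not with T5985871, and less with Trametinib. It also reports a significant overlap between microexons decreased by AW00693 or T5985871 and those increased by Rbm38 knockdown.

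**Figure D3:**
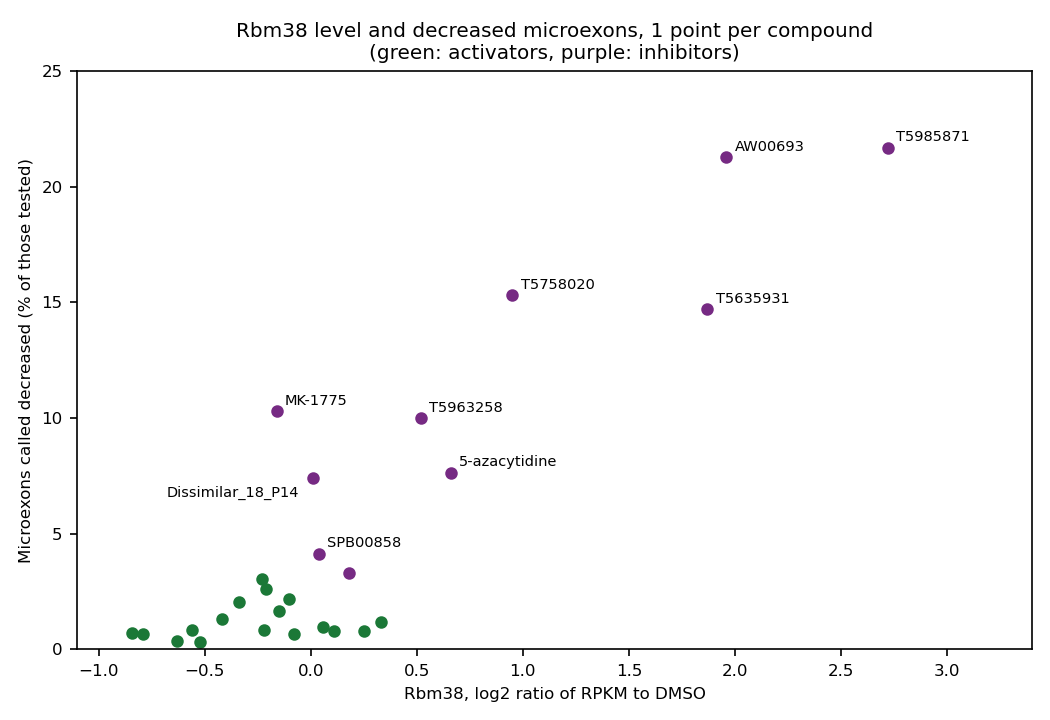
Percent of tested microexons called decreased (vertical axis) against the log2 RPKM ratio of Rbm38 to DMSO (horizontal axis), 1 point per compound, activators in green and inhibitors in purple. The 4 compounds with over 14% decreased have Rbm38 ratios from 0.95 to 2.72, and MK-1775 lies at -0.16 with 10.3%.

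Among 9506 genes with a mean above 5 RPKM, the RNAs most like Rbm38 over the 27 log2 ratios were Arc (r = 0.95), Sertad1 (r = 0.93) and Brd2 (r = 0.93). Arc is an immediate early gene of neurons, and BRD2 is a bromodomain protein that binds acetylated histones. In T5985871, AW00693 and T5635931 the log2 ratios were 4.42, 3.03 and 2.80 for Sertad1 and 2.56, 1.74 and 1.74 for Arc. Brd2 was at 1.41 in AW00693 and 1.38 in T5635931. Elavl2 was most like Fry (r = 0.90), Elavl1 most like Jph1 (r = 0.89), Elavl4 most like Zfp111 (r = 0.89) and Elavl3 most like Kcnab2 (r = 0.87). Among the members, Elavl1 and Elavl4 were most alike (r = 0.76), and Rbm38 was negatively related to each Elavl gene, from -0.33 with Elavl1 to -0.55 with Elavl3. T5985871, with 1 library, had the highest Rbm38 and the lowest value of each Elavl gene by RPKM. It therefore weighs on each of these r values, which were not taken without it.

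Other regulators and target lists gave context in the same inhibitors. Of 27 neural and microexon splicing regulators, 21 were tested in T5985871: 6 were past 2-fold downward and 0 upward, with a median log2 ratio of -0.46 against -0.20 for all genes, of which 8.41% were downward and 6.05% upward. The 6 were Celf3 (-2.08), Srrm4 (-1.51) and Srrm3 (-1.43), the latter both activators of neural microexons, Nova2 (-1.25), Rbfox1 (-1.19) and Celf6 (-1.12). In AW00693, with 2.57% of all genes downward, the list had 2 downward, Celf3 (-1.61) and Srrm3 (-1.27), and Srrm4 was at -0.76. Of 17 tested AU-rich element binding proteins, 2 were past 2-fold upward in T5985871 and 0 downward, against 6.05% and 8.41% of all genes: Zfp36 (log2 1.60) and Zfp36l2 (log2 1.47), which promote decay of AU-rich RNAs. In Vorinostat, where 22.5% of all genes were downward and 10.4% upward, 9 of 17 of these were downward and 1 upward.

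The p53 pathway list, read because Rbm38 is a p53 target, had 3 of 17 tested genes upward in T5985871 and 1 downward, where 6.05% of all genes were upward and 8.41% downward. Upward were Cdkn1a, which arrests the cell cycle (log2 1.25), Sesn1 (1.07) and Bbc3 (1.05), and downward was Rrm2b (-1.43), which is itself known as p53-induced. In AW00693 and T5635931 none of the 16 tested genes of this list was past 2-fold, and Cdkn1a was at a log2 ratio of 0.45 in AW00693. Of 17 tested RNAs known as ELAVL targets, 3 were upward in T5985871, namely Fos (4.22), Cdkn1a (1.25) and Mycn (1.09), and 2 downward, Mapt (-1.54) and Marcks (-1.33), beside the same 6.05% and 8.41% of all genes. The summed level of the neuroblastoma markers was 976 RPKM in T5985871, 925 RPKM in AW00693 and 994 RPKM in T5635931, against 940 RPKM in DMSO. Chgb alone made up 410, 353 and 354 RPKM of these sums, against 325 RPKM in DMSO. The neuronal markers summed to 1013, 966 and 1113 RPKM against 1289 RPKM. The part of these markers in the Elavl and Rbm38 values was not tested.

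Of the 73 splicing events of the members, 6 are the first site of a pair of acceptors or donors and mirror the second, which left 67. Of these, 51 had enough reads against DMSO in at least 1 compound: 10 of Elavl1, 13 of Elavl2, 11 of Elavl3, 12 of Elavl4, 5 of Rbm38 and 0 of Rbm24. An event was called with a difference of at least 10 in percent spliced in (PSI) and a posterior probability above 0.95 from its reads. In 1325 tests of member events 16 were called (1.21%), 10 toward inclusion and 6 away from it. Over all events, 0.784% to 2.48% were called per compound, and comparing single DMSO libraries with the other DMSO libraries called 0.810%, 0.808% and 0.794%. The share for the members was thus within the background, and 12 of the 16 calls came from 1 exon.

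That exon was the 39-nt exon of Elavl2, at chr4:90920832-90920870 in mm9, the build of the splicing table. Its PSI was 31.3, 35.4 and 29.1 in the DMSO libraries. It was 58.4 and 61.8 in Vorinostat, 50.3 and 51.2 in CI-994, 50.7 and 47.2 in BRD6688, and 51.5 and 47.1 in BRD4884. All 8 libraries of HDAC inhibitors lay above all 3 DMSO libraries, but how many of all events separated in this way was not counted. The kinase inhibitors A-443654 (54.0), NVP-AEW-541 (50.9) and Crenolanib (47.1) and the inhibitor labelled Dissimilar_18_P14 (44.3) were also called toward inclusion. Of all events tested, 0.815% were called toward inclusion in Vorinostat, 1.02% in CI-994, 0.553% in BRD6688, 0.518% in BRD4884, 0.701% in A-443654, 0.519% in NVP-AEW-541, 0.537% in Crenolanib and 0.615% in Dissimilar_18_P14. Among the other kinase inhibitors of the activator class, Trametinib (38.5), SCH-772984 (33.8) and GNF-5837 (33.1) were not called.

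The same Elavl2 exon was skipped more with 4 of the 7 drug-like activators. PSI was 14.8 in S02045, 15.5 in BTB12021, 15.9 in RDR00572 and 19.6 in RH01954, all called and all below the DMSO range. The other drug-like activators, BTB13120 (39.2), BTBS00065 (40.7) and SEW06315 (33.8), were not called. Of all events, 0.792%, 0.898%, 0.937% and 0.539% were called toward skipping in these compounds, in that order. Microexons as a class went the other way with these compounds, with 67 of 611 called increased and 10 decreased in S02045. The microexon inhibitors with high Rbm38 had 25.1 (T5985871), 24.6 (AW00693) and 26.8 (T5635931), below the DMSO libraries but within 10 PSI of their mean. Every library had at least 352 reads on this exon.

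**Figure D4:**
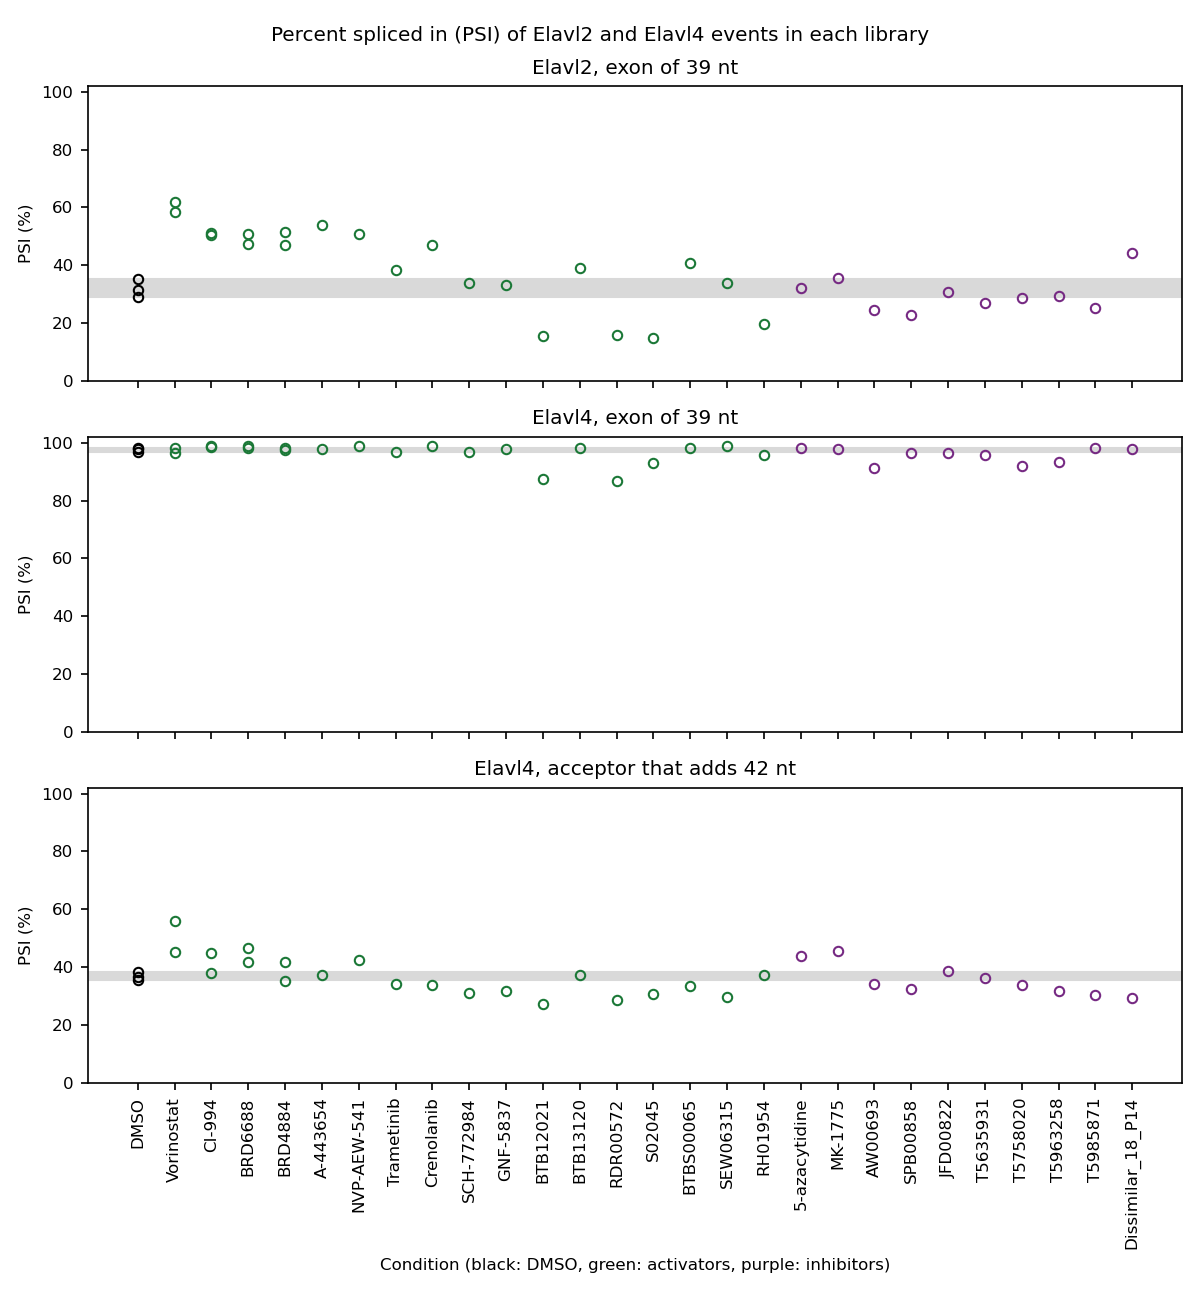
Percent spliced in (PSI) of the 39-nt exon of Elavl2, the 39-nt exon of Elavl4 and the Elavl4 acceptor that adds 42 nt, 1 circle per library, in DMSO (black), activators (green) and inhibitors (purple), with the DMSO range in grey. The Elavl2 exon spans 14.8 to 61.8, while the Elavl4 exon stays between 86.7 and 98.8.

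The HDAC inhibitors were the only compounds with replicates, and limma was fitted there on the log odds of inclusion across 144484 events in 11 libraries. The Elavl2 exon differed from DMSO by 1.68 ± 0.39 (SE, log2 odds) in Vorinostat (adjusted p = 0.0341, with 5.15% of all events called). Over the 15 alternatives this adjusted p ranged from 0.0106 to 0.132, and it lay under 0.05 in 5 of them. The differences in CI-994 (1.13, adjusted p = 0.129), BRD6688 (1.03, adjusted p = 0.382) and BRD4884 (1.05, adjusted p = 0.502) did not pass in that fit. The unadjusted limma p-values were 0.0143, 0.0228 and 0.0210. Of all events, 3.43% were called in CI-994, 0% in BRD6688 and 0.00277% in BRD4884. Unadjusted limma p-values under 0.05 were common: 30566 of the 144484 events in CI-994, 15640 in BRD6688 and 12153 in BRD4884.

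In simulated reads laid out as CI-994 against DMSO, fitting all 144484 events gave 530 false calls and found 11% of changes of 25 PSI and 94% of changes of 45 PSI. A fit limited to the 8933 events with a mean PSI of 5 to 95 was therefore added after the data were seen. Over 9725 simulated events of that kind it found 86% and 100% of these changes with 10 false calls. The simulation changed 100 events of each size at a set spread, while the fit of all events called 4956 in CI-994. The simulated shares thus do not give the power in these data. In the limited fit the Elavl2 exon passed in Vorinostat (adjusted p = 0.0111) and CI-994 (adjusted p = 0.0414). It did not pass in BRD6688 (adjusted p = 0.139) or BRD4884 (adjusted p = 0.121). The background of that fit was 3.83% of events in Vorinostat, 3.58% in CI-994, 0.0224% in BRD6688 and 0.0560% in BRD4884. A second Elavl2 exon, of 91 nt, overlaps coding sequence and is in 4 of 16 annotated transcripts. It also passed in Vorinostat in the limited fit (1.29 ± 0.22 log2 odds, adjusted p = 0.0235). Its PSI was 14.9 and 14.4 against 6.8, 6.1 and 6.6 in DMSO, a difference under the 10 PSI needed for a call. The other events called when all were fitted were an Elavl4 exon of 104 nt in Vorinostat, with no skipping read in either library, against 98.1 to 99.1 PSI in DMSO, an Elavl1 intron at 0.3 PSI in both Vorinostat libraries and 0.0 in DMSO and, in CI-994, an Elavl1 exon of 226 nt at 99.9 PSI or above against 98.8 to 99.6 in DMSO.

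The 39-nt exon of Elavl4, by contrast, was included at 96.8 to 98.0 PSI in DMSO. It was called lower only in BTB12021 (87.3) and RDR00572 (86.7), and stood at 92.9 in S02045 and 95.9 in RH01954. The 39-nt exon of Elavl3 stayed at 96.3 or above in all 34 libraries. The 3 closely related exons thus had DMSO values from 29.1 to 35.4 in Elavl2, from 96.8 to 98.0 in Elavl4 and from 97.9 to 99.4 in Elavl3.

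Downstream of the Elavl4 exon, the acceptor that adds 42 nt was used at 35.7 to 38.4 PSI in DMSO. In Vorinostat it was at 55.8 and 45.1, called against DMSO by reads (mean difference 13.5) but not by limma over the intermediate events (adjusted p = 0.158). The libraries of the other 26 compounds ranged from 27.3 in BTB12021 to 46.7 in BRD6688 replicate B, above the lower Vorinostat library, and none of these compounds was called. The intron between the 39-nt exon and this acceptor was retained at 5.6 PSI in DMSO and at 17.3 in RDR00572, its only call, in a compound with 1.17% of events called toward inclusion.

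The remaining events had no call in any compound. A pair of Elavl2 acceptor choices that add 3 nt ranged from 26.3 to 40.8 PSI and from 88.9 to 94.1 PSI over all libraries. The acceptor pair of Elavl3 that differs by 3 nt was at 90.5, 76.6 and 87.6 in the DMSO libraries, and replicate B was called against the others, so differences of this size at that site lie within the DMSO spread. A 58-nt exon in the first intron of Elavl1 ranged from 5.8 to 17.7 PSI over all libraries against 9.3 to 12.5 in DMSO, with no call. Both tested exons of Rbm38 were included at 98.6 PSI or more in every library, and its 3 tested introns had no call, so the rise of Rbm38 RNA was not accompanied by a called splicing difference in the gene.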

How the data were processed

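PolyA RNA of 34 libraries was sequenced by the study after 24 h of treatment. Per the deposited tables and methods, the authors made the RPKM values with Salmon on GENCODE vM21 transcripts, summed to genes, with replicates merged into 1 value per condition; the processing notes name Salmon 0.10.2. The authors made the percent spliced in (PSI, in percent) values per library with vast-tools, on mm9 coordinates, with the reads behind each value in a quality string. Their own fold changes, p-values and table of called splicing changes against DMSO were not used.

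Here, log2 ratios of RPKM used a pseudocount of 0.5, and a gene was counted past 2-fold with over 5 RPKM in either condition. Events needed sufficient coverage and balanced reads (introns at least 15 reads) in at least 0.5 of the libraries of both conditions. Calls needed 10 PSI and a posterior probability above 0.95 over 2000 beta draws, and compare libraries, not conditions. limma 3.58.1 was fitted on the log2 odds of (inclusion reads + 1)/(all reads + 2), without a replicate block, for DMSO and the HDAC inhibitors, with Benjamini-Hochberg adjustment over all events of a contrast. Near-constitutive exons (DMSO mean of at least 95 PSI) gave junction RPM, a measure added after the data were seen, on 19001452 to 44475745 inclusion reads per library. Reads were not deduplicated with molecular identifiers, so posterior calls cover counting error only. Scripts were tested on simulated reads with known changes.

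Named were all members, events called in at least 1 compound or with a DMSO mean of 5 to 95 PSI, the genes most alike in pattern over 27 compounds, and members of 4 gene lists with the largest ratios. Members, lists and tests were chosen with earlier results of these data known. Over 10 pairs of groups, the deviations of same-lettered replicates correlated from -0.06 to 0.06. Most of the events behind these values lay outside 5 to 95 PSI, where deviations rest on few reads. They therefore cannot exclude pairing. Alternatives covered the pseudocount, the filter, centring, stricter calls, the replicate block and left-out libraries.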

Additional observations from a re-analysis of the deposited data

How the results depend on the processing

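Of the 8 gene and compound pairs past 2-fold, the count was 7 to 9 over 6 alternatives (pseudocounts, filters, centring and junction reads). With centring, Elavl4 in Vorinostat (-0.78), Elavl1 (-0.88) and Elavl3 in T5985871 no longer passed, and Elavl2 in Vorinostat (1.24) and CI-994 (1.20) passed upward. With junction reads, Elavl4 in Vorinostat (-0.62), Elavl1 (-0.70) and Elavl3 (-0.94) in T5985871 did not pass; the 3 Rbm38 calls passed under every alternative. The 16 splicing calls became 10 when 15 PSI was required, and 16 to 18 without 1 DMSO library. They numbered 16 with a posterior above 0.99, with stricter coverage and with pooled draws. In limma, the 4 calls of member events became 6 with the replicate block, 3 on PSI itself, with stricter coverage or over events of 5 to 95 PSI, and 1 to 7 when 1 library was left out. The highest of these, 7, was without DMSO replicate C, and the Vorinostat call of the Elavl2 exon was lost without any of the other 10 libraries, while its estimate stayed between 1.58 and 1.80 log2 odds in all 11 of these fits. Same-lettered libraries showed no shared deviations, which cannot exclude pairing. For the Elavl2 exon the replicate block gave the same estimate as leaving out DMSO replicate C (1.59 in Vorinostat), since only DMSO has a replicate C. The cause of these shifts was not tested. Without replicates, the RPKM values allow no such check, and most compounds have 1 library.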
